A study of Homo sapiens with 4 samples.

Results

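Expression of 10 genes of the NF-kB pathway was measured in 143B cells, a human osteosarcoma line, after small interfering RNA (siRNA) against CBX3. CBX3 encodes HP1γ, a protein that binds methylated histone tails. The genes were taken by name: the subunit genes NFKB1, NFKB2, RELA and RELB, the inhibitor genes NFKBIA and NFKBIE, and the responsive genes TNFAIP3, TNIP3, BIRC3 and SOD2. All 10 were among the 37450 genes of the count table, and all 10 passed the filter on low counts. The groups were 2 libraries from cells given siRNA against CBX3 (siCBX3; CBX3 knockdown) and 2 from cells transfected with the control siRNA siNC (genotype given as WT). All cells received lipid transfection and were harvested 2 days later, and RNA was read by stranded mRNA sequencing. How many siRNAs were used was not given in the sources used here, and neither was whether the libraries of a group came from separate cultures, so the p-values rest on library-to-library spread alone, and that spread may be technical.

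NF-kB is a family of dimers built from 5 related proteins, encoded by NFKB1, NFKB2, RELA, RELB and REL. In resting cells IkB proteins hold the dimers in the cytoplasm; when a receptor signals, IkB kinase (IKK) marks IkB for destruction and the dimers enter the nucleus and bind kB sites in DNA. Many of the genes that NF-kB switches on encode its own subunits and brakes, NFKBIA and TNFAIP3 among them, so the pathway is known for negative feedback. In the canonical branch RELA pairs with the NFKB1 product, and in the non-canonical branch RELB pairs with the NFKB2 product.

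The kB motif was looked for in RefSeq promoter windows (GRCh38.p14, 250 bases before to 50 after a gene start), because many of the 10 genes are textbook NF-kB targets. The table held 17 windows for 8 of the 10 genes. The search used the degenerate kB consensus of 10 letters on both strands; matches may overlap, and a window counts once however many it holds. It was found in at least 1 window of 6 of the 8 genes: NFKB1, NFKB2, NFKBIA, TNFAIP3, TNIP3 and BIRC3. Among 11624 tested genes with a window, 9.03% had such a match. Counted by window, 8 of the 17 windows (47.1%) had one, against 6.82% of the 16890 windows of tested genes and 5.91% of all 35116 windows. The number of windows per gene was not matched in the count by gene. The 10 genes were picked as NF-kB pathway genes, so a share above the background may follow from that choice and tests nothing. The relaxed form GGGNNNNNCC, which includes every consensus match, was in 58.7% of all windows and so does little to set a promoter apart. The 6 windows below are written on the strand of the gene, 5′ to 3′, with the consensus matches of either strand in capitals. They are shown because they hold the motif in genes that differed widely in their response. Another NFKB2 window and another TNIP3 window also hold the motif and are not printed.
NFKB1, chr4:102501109-102501408, plus strand: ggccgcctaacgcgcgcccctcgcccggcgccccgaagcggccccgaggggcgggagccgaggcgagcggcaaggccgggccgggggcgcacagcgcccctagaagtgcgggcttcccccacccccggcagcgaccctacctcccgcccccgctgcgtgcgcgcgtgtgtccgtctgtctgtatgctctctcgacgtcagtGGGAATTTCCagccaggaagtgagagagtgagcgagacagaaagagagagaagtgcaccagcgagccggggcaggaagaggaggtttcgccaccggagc
NFKB2, chr10:102394328-102394627, plus strand: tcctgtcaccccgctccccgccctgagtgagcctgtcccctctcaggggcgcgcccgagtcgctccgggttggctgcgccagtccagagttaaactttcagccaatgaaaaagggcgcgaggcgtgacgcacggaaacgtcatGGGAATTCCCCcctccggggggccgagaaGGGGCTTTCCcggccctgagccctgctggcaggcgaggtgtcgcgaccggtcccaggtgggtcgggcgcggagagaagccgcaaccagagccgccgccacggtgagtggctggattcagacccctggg
NFKBIA, chr14:35404700-35404999, minus strand: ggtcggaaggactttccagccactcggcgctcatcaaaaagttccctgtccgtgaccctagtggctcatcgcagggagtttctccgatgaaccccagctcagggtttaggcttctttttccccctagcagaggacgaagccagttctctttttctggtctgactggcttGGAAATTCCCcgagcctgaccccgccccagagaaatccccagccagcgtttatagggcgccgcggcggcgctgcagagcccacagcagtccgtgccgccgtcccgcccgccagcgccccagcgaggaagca
TNFAIP3, chr6:137867009-137867308, plus strand: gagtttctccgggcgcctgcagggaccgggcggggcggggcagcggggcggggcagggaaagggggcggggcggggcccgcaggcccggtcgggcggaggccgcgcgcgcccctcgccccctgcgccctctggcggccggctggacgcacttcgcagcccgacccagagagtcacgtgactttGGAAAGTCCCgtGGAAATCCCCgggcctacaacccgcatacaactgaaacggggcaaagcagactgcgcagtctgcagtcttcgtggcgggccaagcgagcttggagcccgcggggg
TNIP3, chr4:121227434-121227733, minus strand: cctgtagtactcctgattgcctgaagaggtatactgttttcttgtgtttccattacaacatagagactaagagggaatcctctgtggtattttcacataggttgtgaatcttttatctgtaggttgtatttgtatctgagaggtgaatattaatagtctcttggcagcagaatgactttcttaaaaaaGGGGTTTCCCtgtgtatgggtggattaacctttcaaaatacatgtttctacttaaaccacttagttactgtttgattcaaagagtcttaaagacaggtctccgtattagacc
BIRC3, chr11:102317234-102317533, plus strand: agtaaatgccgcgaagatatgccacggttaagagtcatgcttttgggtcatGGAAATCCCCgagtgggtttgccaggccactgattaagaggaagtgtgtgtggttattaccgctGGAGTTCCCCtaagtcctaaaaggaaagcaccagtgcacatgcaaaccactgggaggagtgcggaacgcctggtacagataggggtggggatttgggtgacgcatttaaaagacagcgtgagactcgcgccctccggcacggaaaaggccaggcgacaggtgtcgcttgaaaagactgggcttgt

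In NFKB1 the match starts 49 bases upstream of the gene start. In NFKBIA it starts 81 bases upstream and reads GGGAATTTCC on the opposite strand, the same 10 letters that NFKB1 has on its own strand. TNFAIP3 has a pair, 67 and 55 bases upstream, which read GGGACTTTCC and GGGGATTTCC on the opposite strand. In the printed TNIP3 window the match starts 62 bases upstream and fits the consensus on both strands. BIRC3 also has a pair, 199 and 135 bases upstream. The printed NFKB2 window has matches that start 107, 106 and 78 bases upstream, and the match at 107 fits on both strands. A match is a description of letters and not evidence of binding. No match in the windows of RELA and SOD2 says only that these letters are not there.

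Sequencing depth was similar in the groups, with 36509298 to 40336907 counted reads per library. CBX3 stood at 57.3 and 57.1 CPM (counts scaled to library size with TMM factors) in siCBX3, against 539 and 508 CPM in siNC, a log2 fold change of -3.19 (SE 0.08, adjusted p 2.73e-20, edgeR). For CBX3, 368 exon bases are shared with HNRNPA2B1 on the opposite strand. HNRNPA2B1 had 97802 and 109355 counts in siCBX3, against 140649 and 165518 in siNC. How many of its reads were also counted for CBX3 was not tested. Libraries of one group had a Pearson correlation of 0.991 across genes on log2 CPM, and libraries of different groups 0.957 to 0.961. Of 7 mesenchymal and osteoblast markers 5 were tested, and 4 were higher in siCBX3 (VIM, SPARC, COL1A1 and RUNX2, with log2 fold changes of 1.01, 2.43, 0.44 and 0.39) and 0 lower. Their summed level was 3231 and 3143 CPM in siCBX3, against 1036 and 1069 CPM in siNC. The osteoblast genes ALPL and SP7 had at most 4 counts in any library. The leukocyte marker CD3E also had at most 4 counts in any library, and PTPRC had 10 and 4 counts in siCBX3 against 18 and 12 in siNC. Of 7 tested leukocyte markers of 10, 2 were higher in siCBX3, namely CD68 and CSF1R, both chosen after their values were seen. The summed level of the 10 markers, nearly all of it CD68, was 600 to 661 CPM in siCBX3 and 400 to 434 CPM in siNC; 81.7% of the exon bases of CD68 are shared with another gene. The part of these markers in the results was not tested. Of 5 endothelial and 5 epithelial markers, 3 and 2 were tested, and the one call was EPCAM, lower in siCBX3.

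Of the 10 genes, 8 were higher in siCBX3 and 0 were lower, at an adjusted p under 0.05 in edgeR's quasi-likelihood test. Across the 20999 tested genes, 24.4% were called higher and 24.0% lower. The median log2 fold change (siCBX3 minus siNC) was 1.07 over the 10 genes and -0.01 over all tested genes. A called rise of at least 1 on the log2 scale was seen in 6 of the 10, against 6.41% of tested genes. Both siCBX3 libraries lay above both siNC libraries in 9 of the 10, against 36.4% of tested genes. The 10 genes were chosen with earlier results of these data known, so these comparisons are descriptive and test no enrichment. In bulk RNA a change in the share of cells that express a gene cannot be told apart from a change in RNA per cell.

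**Figure D1:**
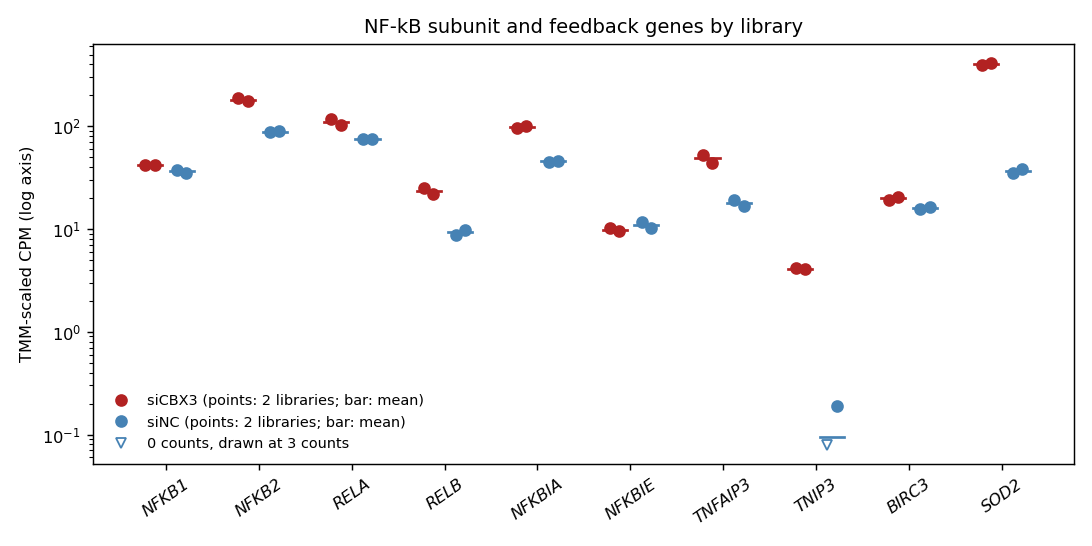
TMM-scaled CPM of the 10 genes in each library on a log axis, with siCBX3 (red) left of siNC (blue); points are libraries and bars are group means. SOD2 and TNIP3 show the widest gaps, while the groups of NFKB1, NFKBIE and BIRC3 lie close together; the open triangle is siNC replicate 1 of TNIP3, with 0 counts, drawn at the level of 3 counts.

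Among the subunit genes, NFKB2 and RELB of the non-canonical branch had the larger fold changes. NFKB2 (chromosome 10, 102394110 to 102402529, plus strand, GRCh38) encodes the precursor of the subunit that pairs with RELB. It had 189 and 176 CPM in siCBX3, against 88.7 and 89.1 CPM in siNC. The means of 182 ± 8.95 CPM in siCBX3 and 88.9 ± 0.257 CPM in siNC (SD, n = 2 each) differed 2.05-fold, with a log2 fold change of 1.04 (SE 0.07, adjusted p 3.52e-11, edgeR). RELB (chromosome 19, 45001430 to 45038198, plus strand) had 24.9 and 21.95 CPM in siCBX3, against 8.68 and 9.87 CPM in siNC. That is a log2 fold change of 1.33 (SE 0.11; edgeR, adjusted p 5.44e-10), the largest of the 5 subunit genes.

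The canonical subunit genes moved less. RELA (chromosome 11, 65653596 to 65663094, minus strand) encodes the main transactivating subunit. It had 117 and 103 CPM in siCBX3, against 76.0 and 75.7 CPM in siNC, a log2 fold change of 0.54 (SE 0.08; edgeR, adjusted p 4.2e-06). The siCBX3 libraries differed more from each other than the siNC libraries did, yet both lay above them. NFKB1 (chromosome 4, 102501329 to 102617302, plus strand), which encodes the partner of RELA, had 41.6 and 42.4 CPM in siCBX3, against 37.9 and 35.3 CPM in siNC. Its log2 fold change of 0.20 was not called (adjusted p 0.0538, edgeR), with an unadjusted 95% interval of 0.03 to 0.37. Without siNC replicate 1 it was called (log2 fold change 0.25, adjusted p 0.0288, edgeR); over all alternatives the adjusted p was 0.0288 to 0.271. REL, the fifth subunit gene and not one of the 10, had 21.6 ± 1.84 CPM in siCBX3 and 20.7 ± 0.0488 CPM in siNC (SD, n = 2 each; adjusted p 0.673, edgeR). It shares 50.7% of its exon bases with RP11-373L24.1 on its own strand, so its level is uncertain.

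Because transcripts differ in length, levels of different subunit genes were compared on the deposited RPKM (read counts divided by exon length and library total). The RPKM summed over the 5 subunit genes was 77.6 and 72.4 in siCBX3, against 44.9 and 46.4 in siNC. NFKB2 held the largest share of this sum, 52.7% ± 0.494 in siCBX3 and 44.6% ± 0.117 in siNC (SD, n = 2 each). RELB held 9.99% ± 0.300 in siCBX3 and 6.88% ± 0.625 in siNC. The share of RELA was 26.1% ± 0.757 in siCBX3 and 31.2% ± 0.0984 in siNC, and that of NFKB1 8.72% ± 0.629 in siCBX3 and 13.2% ± 0.652 in siNC. RELA mRNA thus took a smaller share of the sum although it rose itself.

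**Figure D2:**
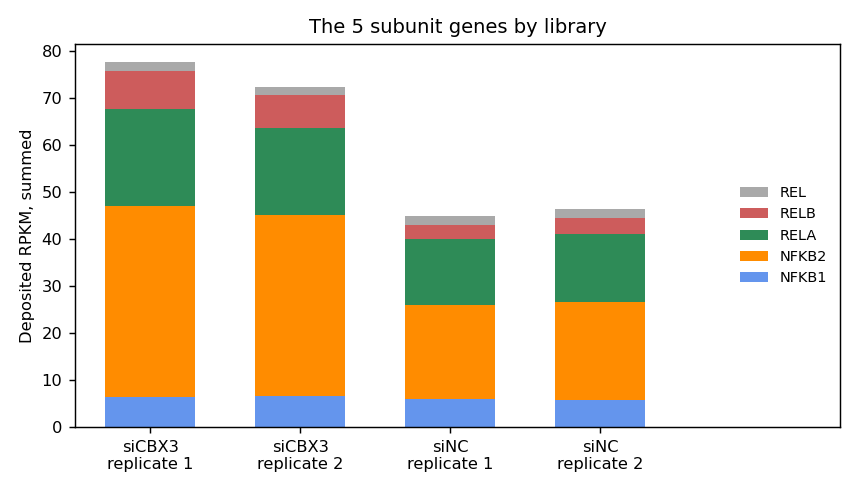
Deposited RPKM of the 5 subunit genes stacked for each library, siCBX3 libraries on the left and siNC libraries on the right. The sums of 77.6 and 72.4 in siCBX3 stand above 44.9 and 46.4 in siNC, and the NFKB2 segment is the tallest in every library.

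Ratios within a library restate the same shift, because they are computed from the same RPKM values. The RPKM ratio of NFKB2 to NFKB1 was 6.32 and 5.79 in siCBX3, against 3.27 and 3.52 in siNC. The ratio of RELB to RELA was 0.383 and 0.382 in siCBX3, against 0.206 and 0.235 in siNC. In neither ratio did the groups overlap, but with 2 libraries against 2 an exact permutation test cannot pass 0.05, so no test is given for the ratios.

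The IkB genes were split. NFKBIA (chromosome 14, 35401511 to 35404749, minus strand) encodes IkBα, the inhibitor that NF-kB resynthesises to switch itself off. It had 95.4 and 100.2 CPM in siCBX3, against 45.1 and 46.1 CPM in siNC, with a log2 fold change of 1.10 (SE 0.08, adjusted p 2.67e-11, edgeR). Every siCBX3 value was above every siNC value by far more than the gap within a group. NFKBIE (chromosome 6, 44258166 to 44265788, minus strand), which encodes IkBε, had 358 and 359 counts in siCBX3, against 445 and 428 in siNC. In CPM these are 9.81 ± 0.483 in siCBX3 and 10.98 ± 1.17 in siNC (SD, n = 2 each), with a log2 fold change of -0.16 (SE 0.12, adjusted p 0.302, edgeR; unadjusted 95% interval -0.42 to 0.10). The higher siCBX3 library and the lower siNC library nearly coincided. NFKBIE was the only one of the 10 genes with a negative estimate, here and in all 14 alternatives, and it was called in none of them.

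The RPKM ratio of NFKBIE to NFKBIA was therefore lower in siCBX3, at 0.0978 and 0.0869, against 0.241 and 0.202 in siNC. The ratio of NFKBIA to RELA, an inhibitor transcript over that of a subunit it binds, was 1.88 and 2.23 in siCBX3, against 1.37 and 1.40 in siNC. The groups did not overlap in either ratio.

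TNFAIP3 and TNIP3, whose products act together in the ubiquitin-editing brake, both rose. TNFAIP3 (chromosome 6, 137867188 to 137883312, plus strand) encodes A20, which removes activating ubiquitin chains from signalling proteins upstream of IKK. It had 53.0 and 44.4 CPM in siCBX3, against 19.3 and 16.6 CPM in siNC, a 2.72-fold difference (log2 fold change 1.44, SE 0.10, adjusted p 1.88e-11, edgeR). Only 95 of its 5051 exon bases are shared with another gene, RP11-356I2.4 on the opposite strand, which had 63 and 45 counts in siCBX3, against 34 and 32 in siNC. The RPKM ratio of TNFAIP3 to NFKBIA was 0.261 and 0.208 in siCBX3, against 0.201 and 0.169 in siNC, so the groups stood close.

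TNIP3 (chromosome 4, 121131408 to 121227466, minus strand) encodes a protein that binds A20 and restrains NF-kB. It had 146 and 154 counts in siCBX3, against 0 and 8 in siNC. In CPM these are 4.10 ± 0.0555 in siCBX3 and 0.0949 ± 0.134 in siNC (SD, n = 2 each), with a log2 fold change of 5.31 (SE 0.43, adjusted p 2.5e-10, edgeR). It ranked 29 of 20999 by log2 fold change, while its low level in siNC leaves the size imprecise. Without siNC replicate 1, the library with 0 counts, the log2 fold change was 4.41. Without siNC replicate 2 it was 10.2, a fitted value against 0 counts that depends on the prior count. The group means differed 43.2-fold. Against siNC replicate 1 alone, taken at its floor of 3 counts (0.0796 CPM), the siCBX3 mean was at least 51.5-fold higher, while siNC replicate 2 stood at 0.190 CPM. All alternatives kept the call, with an adjusted p of at most 0.00842.

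BIRC3 and SOD2, both survival genes that NF-kB induces, differed widely in their response. BIRC3 (chromosome 11, 102317450 to 102339403, plus strand) encodes cIAP2, a ubiquitin ligase that acts at tumour necrosis factor receptors. It had 19.0 and 20.7 CPM in siCBX3, against 15.8 and 16.6 CPM in siNC, with a log2 fold change of 0.29 (SE 0.10; edgeR, adjusted p 0.0199). The call ended in 6 of 14 alternatives, among them without siCBX3 replicate 2 (adjusted p 0.188, edgeR), without siNC replicate 1 (0.0681, edgeR), with library totals (0.0992, edgeR) and with DESeq2 (0.0593); the range over all alternatives was 0.0150 to 0.235. Its paralogue BIRC2, which encodes cIAP1, had a larger log2 fold change of 0.85 (SE 0.08; edgeR, adjusted p 9.62e-09). The RPKM ratio of BIRC3 to BIRC2 was 0.163 and 0.158 in siCBX3, against 0.240 and 0.233 in siNC.

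SOD2 (chromosome 6, 159669057 to 159762529, minus strand) encodes the manganese superoxide dismutase of mitochondria, which detoxifies superoxide. It had 392 and 413 CPM in siCBX3, against 35.4 and 38.5 CPM in siNC, a 10.9-fold difference. Its log2 fold change of 3.44 (SE 0.08, adjusted p 1.72e-20, edgeR) ranked 99 of 20999 by size and 8 by p-value. Of its 18985 exon bases, 2287 are shared with ACAT2 or WTAP on the opposite strand, and the counts may not separate strands. ACAT2 itself had 1569 and 1720 counts in siCBX3, against 1564 and 2085 in siNC, and WTAP had 2055 and 2397 in siCBX3, against 1530 and 1773 in siNC. SOD2 had 13813 and 15646 counts in siCBX3, against 1334 and 1621 in siNC, a gain larger than all reads of both neighbours. The 3 tested genes with levels nearest to those of SOD2 over the 4 libraries were PMEPA1, COL5A1 and IER3, at Euclidean distances of 0.674, 0.728 and 1.03 on log2 CPM, over tested genes whose mean reached 1 CPM.

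**Figure D3:**
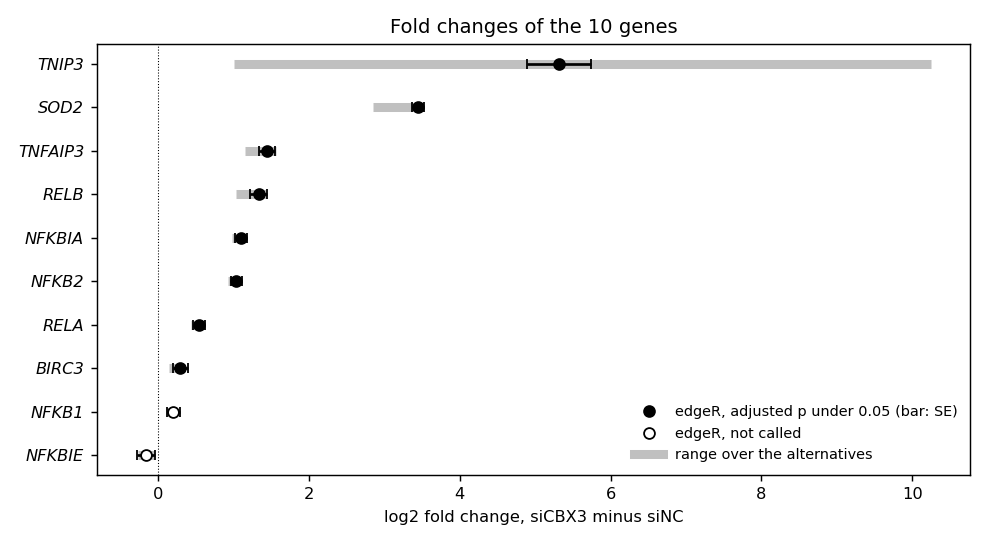
Log2 fold change (siCBX3 minus siNC) of the 10 genes from edgeR, with SE bars; filled points passed the adjusted p threshold and grey bars span the 14 alternatives. TNIP3 at 5.31 and SOD2 at 3.44 lead, NFKB1 and NFKBIE were not called, and the grey bar of TNIP3 runs from 1.00 to 10.2.

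Placed in order by RPKM, the 10 genes ran from NFKBIA (40.1) and NFKB2 (39.5) through SOD2 (20.6), RELA (19.6), TNFAIP3 (9.38), RELB (7.50), NFKB1 (6.53), NFKBIE (3.70) and BIRC3 (2.57) to TNIP3 (1.06) as means in siCBX3. In siNC the order was NFKB2 (20.4), NFKBIA (19.7), RELA (14.3), NFKB1 (6.004), NFKBIE (4.37), TNFAIP3 (3.64), RELB (3.14), BIRC3 (2.21), SOD2 (2.00) and TNIP3 (0.0263). The libraries of NFKBIA and NFKB2 overlapped in both groups, as did those of SOD2 and RELA in siCBX3; other neighbours in each order did not overlap. SOD2, TNFAIP3 and RELB thus moved up in the order, and NFKB1, NFKBIE, RELA and BIRC3 moved down. NFKBIA and NFKB2 changed places, with overlapping libraries. The deposited RPKM divides by all annotated exon bases, 18985 for SOD2 but 2373 for NFKBIA, so unused exons lower a gene's place in the order.

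**Figure D4:**
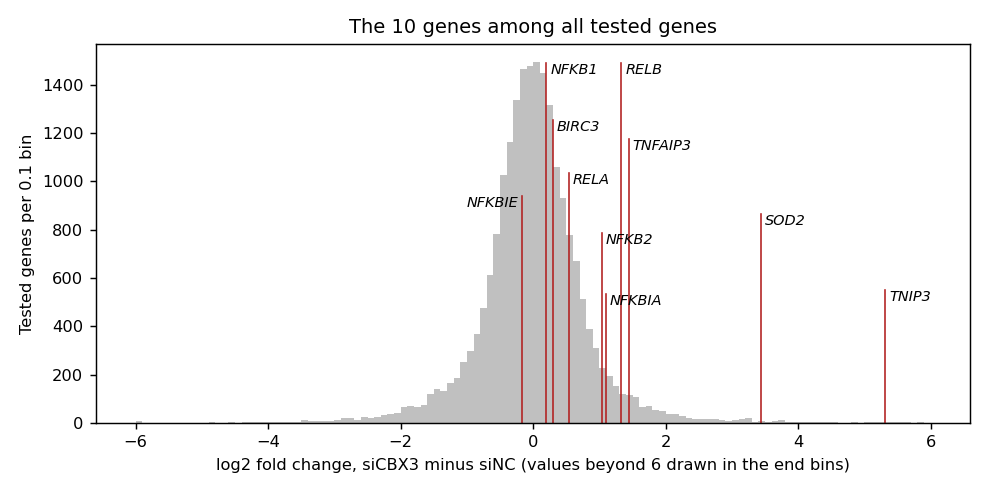
Log2 fold changes of all 20999 tested genes as a grey histogram in bins of 0.1, with a red line at each of the 10 genes; line height carries no value. NFKBIE, NFKB1, BIRC3 and RELA lie within the bulk of the distribution, and TNIP3 and SOD2 lie in its far right tail.

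Genes with and without a promoter match were found among both large and small changes. The genes with a consensus match included TNIP3 (5.31), TNFAIP3 (1.44), NFKBIA (1.10) and NFKB2 (1.04), but also BIRC3 (0.29) and NFKB1 (0.20), all as log2 fold changes. SOD2 (3.44) and RELA (0.54) had no match in their windows. BIRC3 and TNFAIP3 each have a pair of matches in the windows printed above. BIRC3 averaged 19.9 CPM in siCBX3 and 16.2 CPM in siNC, while TNFAIP3 averaged 48.7 CPM in siCBX3 and 17.9 CPM in siNC.

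Outside the 10 genes, 72 other pathway genes were listed, of which 68 were tested; 33 were higher and 11 lower in siCBX3, with a median log2 fold change of 0.26. The lower count was 7 with DESeq2, but 14 with library totals and 14 with upper-quartile factors, where 31 and 32 were higher. Across all tested genes, 24.4% were called higher and 24.0% lower, for comparison with the counts of each list. Among the other subunit and IkB genes, 3 of 5 were higher and 0 lower, with a median of 0.76. NFKBIZ, which encodes the nuclear inhibitor-like cofactor IkBζ, led them with 58.2 and 57.4 CPM in siCBX3, against 9.98 and 9.35 CPM in siNC (log2 fold change 2.58, SE 0.09, adjusted p 6.23e-17, edgeR). NFKBIB, which encodes IkBβ, rose by 0.76 and NFKBID, which encodes the nuclear protein IkBNS, by 0.95 on the log2 scale. BCL3, an atypical IkB gene, had a log2 fold change of 0.43 and was not called (adjusted p 0.065, edgeR).

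Kinase genes moved both ways, with 4 of 10 higher, 3 lower and a median log2 fold change of 0.05. IKBKE, which encodes the IKK-related kinase IKKε, had 84.3 and 82.6 CPM in siCBX3, against 21.9 and 23.7 CPM in siNC (log2 fold change 1.87, SE 0.08, adjusted p 4.55e-15, edgeR). Its relative TBK1 rose by 0.46, and TAB2 and TAB3, which encode adaptors of the kinase TAK1, by 0.55 and 0.71. The 3 lower genes, chosen after their values were seen, were CHUK (-0.44) and IKBKB (-0.39), which encode the catalytic subunits of IKK, and MAP3K14 (-0.29), which encodes the kinase NIK of the non-canonical branch. MAP3K14 shares 12.1% of its exon bases with MAP3K14-AS1 on the opposite strand. IKBKG, which encodes the regulatory subunit of IKK, was not called (-0.15, adjusted p 0.128, edgeR).

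Adaptor and ubiquitin ligase genes were higher in 6 of 13 and lower in 0, with a median of 0.23. The number called higher was 4 with library totals and on RPKM plus 1 or plus 0.1. It was 5 with upper-quartile factors, and 6 with DESeq2 and limma-voom. Leaving out siCBX3 replicate 1, siCBX3 replicate 2 or siNC replicate 2 also lowered it, while leaving out siNC replicate 1 did not. Beside BIRC2, TRADD (1.23), TRAF2 (0.62) and TRAF3 (0.53), which act at tumour necrosis factor family receptors, rose on the log2 scale. Of 10 receptor genes 8 were tested; 4 were higher and 2 lower, with a median of 0.08. LTBR, the lymphotoxin-beta receptor gene, had 211 and 193 CPM in siCBX3, against 97.6 and 97.3 CPM in siNC (log2 fold change 1.05, SE 0.08, adjusted p 2.86e-11, edgeR). IL1R1, the interleukin-1 receptor gene, rose by 1.23 and TNFRSF12A, the TWEAK receptor gene, by 0.43. TLR4, the endotoxin receptor gene, was lower, with 58 and 46 counts in siCBX3 against 197 and 184 in siNC (log2 fold change -1.75, SE 0.22; edgeR, adjusted p 4.06e-07). The other lower receptor gene, TNFRSF1B, had 6 and 2 counts in siCBX3, against 20 and 14 in siNC; it was named after its values were seen. The number of receptor genes called lower was 1 without siCBX3 replicate 2, without siNC replicate 1, with DESeq2, on RPKM plus 1 and at a mean count of at least 50, and 3 without siCBX3 replicate 1, without siNC replicate 2, with library totals and with upper-quartile factors.

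Other negative regulators were higher in 4 of 10 and lower in 1, with a median of 0.07. TNIP1, a relative of TNIP3 that also binds A20, had 608 and 602 CPM in siCBX3, against 223 and 233 CPM in siNC (log2 fold change 1.41, SE 0.07, adjusted p 6.63e-14, edgeR). ZC3H12A, which encodes the RNase Regnase-1 that degrades inflammatory transcripts, rose by 2.37 and TAX1BP1, which encodes an A20-binding adaptor, by 0.71. OTULIN, which encodes a deubiquitinase for linear chains, was lower (-0.47, SE 0.09, adjusted p 0.000121, edgeR). TNIP2, which encodes another A20-binding protein, was not called (log2 fold change 0.08, adjusted p 0.440, edgeR), and neither was CYLD, which encodes another deubiquitinase (log2 fold change 0.02, adjusted p 0.890, edgeR); both were named after their values were seen.

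Target genes outside the 10 were higher in 12 of 22 tested and lower in 5, with a median of 0.88. The smallest p-values were those of the chemokine genes CXCL8 and CXCL1, the cyclooxygenase gene PTGS2 and IER3. CXCL8 had 189 and 187 CPM in siCBX3, against 3.18 and 2.71 CPM in siNC. The log2 fold changes of PTGS2, CXCL1 and IER3 were 5.26, 5.22 and 2.60. PLAU shares 31.1% of its exon bases with a gene on the opposite strand, and IER3 26.5%. Not every textbook target rose. The 5 lower ones, named after their values were seen, were PSMB9 (-2.30), CD83 (-1.02), PLAU (-0.50), GADD45B (-0.36) and TAP1 (-0.31), as log2 fold changes. The number called lower was 2 with DESeq2, 3 on RPKM plus 1 or plus 0.1, and 6 with library totals or upper-quartile factors. TNF itself had at most 2 counts in any library, CCL20 had 4 and 18 counts in siCBX3 against 0 and 0 in siNC, and both were not tested.

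**Figure D5:**
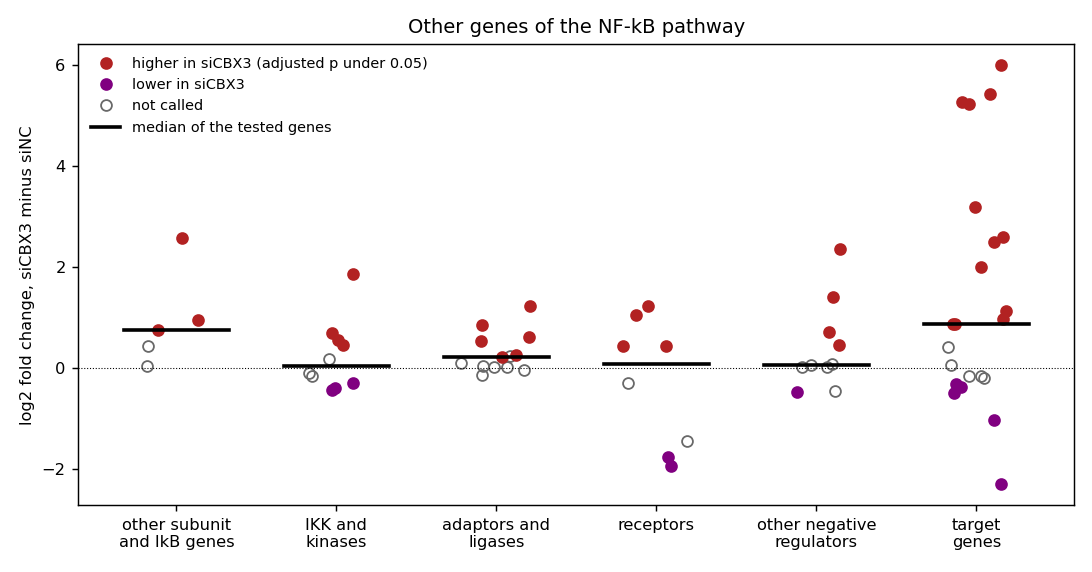
Log2 fold change (siCBX3 minus siNC) of each tested gene in the 6 other pathway lists; red points were called higher, purple points lower and open points not called, and black bars are medians. The target list spans the widest range, from PSMB9 at -2.30 up to CXCL8 at the top, while the kinase, receptor and negative regulator lists have medians of 0.05, 0.08 and 0.07.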

How the data were processed

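The data are 4 stranded mRNA libraries of 143B cells. The submitters' processing notes name Trimmomatic 0.36, STAR 2.5.3a, featureCounts of Subread 1.5.1 and GRCh38; for the annotation release and the strand setting the sources used here give nothing. The authors deposited raw read counts per gene and RPKM values, 1 column per library per the file headers. The RPKM match counts, exon length and library totals to a relative difference of 3.79e-07.

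The deposited counts went into edgeR 4.0.16 (R 4.3.3): filterByExpr (minimum count 10, minimum total 15), TMM factors, a quasi-likelihood fit with group as its only term (2 residual and 22.0 prior degrees of freedom), and Benjamini-Hochberg adjustment over all 20999 tested genes at 0.05. SEs were derived from the fold change and the F statistic; intervals are unadjusted. Alternatives used DESeq2 1.42.0 and limma 3.58.1. The fit was run on simulated counts that shared a common dispersion across genes, so that run does not show how well the p-values hold in these data. The SD covers 2 libraries, and no source used here says whether repeated molecules were removed by molecular identifiers.

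The members, gene lists and tests were chosen with earlier results of these data known. In each pathway list up to 4 genes with the smallest p were named. Coordinates are from the count table; exon overlap was computed from it. Promoters are from RefSeq (GRCh38.p14), and motif searches and plots used Python 3.11.15.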

Additional observations from a re-analysis of the deposited data

How the results depend on the processing

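Other size factors (RLE, upper quartile, library totals), no filter, a mean count of at least 50, DESeq2, limma-voom, limma on log2 of RPKM plus 1 or plus 0.1, leaving out each library and a replicate block were tried. No estimate of the 10 genes changed sign. Library totals moved the median of all tested genes to -0.09 on the log2 scale, gave 4243 genes higher and 5917 lower against 5132 and 5041, and left 7 of the 10 genes called. With 1 library left out, 7 to 8 of the 10 genes were higher and 0 lower, 4309 to 4964 of all genes were higher and 4123 to 4659 lower, and among the other pathway genes 30 to 34 were higher and 7 to 12 lower; the lone library left in a group is assumed to vary like the other group. DESeq2 called 7 of the other pathway genes lower, and library totals and upper-quartile factors 14 each, against 11. The cause was not tested. Adding 0.1 to the RPKM moved the siCBX3 ratio of RELB to RELA to 0.386 and that of BIRC3 to BIRC2 to 0.166.

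Same-numbered libraries deviated together with a correlation of only 0.0287 across genes, so they share a number and are not taken as pairs. With the replicate block 9 of the 10 genes were higher and 0 lower, since NFKB1 was called (adjusted p 0.0447, edgeR), against 8 without it; all genes gave 5371 higher and 5259 lower, and the other pathway genes 34 and 11. Depth limits the precision of TNIP3 and TNFRSF1B, which have single-digit counts in a group.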
